A study of Mus musculus with 4 samples.

Results

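The 6 genes described here, Sox10, Erbb3, Ngfr, Foxd3, Mbp and S100b, mark Schwann cells and the neural crest cells that give rise to them. They were taken by symbol from a table of 24972 genes, all 6 were present, and all 6 passed the filter that kept 17979 genes for testing. The RNA came from mandibular dental arches, the tooth-bearing strip of the lower jaw, taken from mice on embryonic day 17.5. The mutant group (Ascl5Mut/Mut) comprised libraries 18 and 14 and the wild-type group (Ascl5WT/WT) libraries 15 and 20. The numbers are sample codes, written E18, E14, E15 and E20 in the labels, and not embryonic days. The labels give the genotype of each sample but not what the variant changes in Ascl5, a gene for a basic helix-loop-helix transcription factor, nor whether embryos shared a litter. They do not say that the samples came from separate embryos, although Xist, given below, sets wild type 15 apart in sex. With no such statement in the labels, the p-values reflect only how far these 4 samples spread, in part perhaps for technical reasons.

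Nerves of the jaw carry axons of the trigeminal ganglion wrapped by Schwann cells, glia that descend from the neural crest through a migrating precursor stage. The transcription factor SOX10 is kept through this lineage and is needed for it. The receptor ERBB3, paired with ERBB2, receives the axonal signal neuregulin 1 that keeps precursors alive and drives them along the nerve. FOXD3 and the neurotrophin receptor NGFR (p75) belong to the crest and precursor stages, whereas MBP is a structural protein of compact myelin and S100B a calcium-binding protein of more mature glia. None of the genes is private to this lineage: Sox10 is also made in melanocytes and salivary gland epithelium, Erbb3 in many epithelia, Ngfr in sensory neurons and mesenchyme, S100b in chondrocytes, and some transcripts of the Mbp locus in immune cells.

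The values are normalized read counts and sum to 22506528 and 22134483 in mutant libraries 18 and 14 and to 22352722 and 22578580 in wild-type libraries 15 and 20. Ascl5 was at 10.6 and 12.1 in mutant 18 and 14 against 21.8 and 37.3 in wild type 15 and 20, and did not pass the test (limma, adjusted p = 0.9999). Xist, which coats the inactive X, was at 7.64 and 5.005 in mutant 18 and 14, at 38619 in wild type 15 and at 12.7 in wild type 20, so wild type 15 differed in sex from the rest. Mutant 14 stood apart in markers of salivary gland and neurons, whose values are given beside the results below. Tooth and jaw bone markers were present in every library. Barx1 was at 588 and 579 in mutant 18 and 14 against 955 and 1030 in wild type 15 and 20. Of the 10 genes of that list Barx1 had the smallest p, and 3 lay higher and 7 lower in mutant. The median log2 fold change was -0.35, or -0.034 without wild type 20. Libraries of the same genotype also differed, as in Enam, named after its values were seen. It was at 1570 and 232 in mutant 18 and 14 and at 175 and 1490 in wild type 15 and 20.

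None of the 6 genes differed between genotypes at an adjusted p of 0.05. Sox10, Erbb3 and Foxd3 ranked the libraries in 1 order, mutant 14, wild type 15, mutant 18, wild type 20, in which the genotypes alternate. Ngfr and S100b each had another order. Mbp alone had both mutant values above both wild-type values, by a small margin (log2 fold change 0.22, SE 0.16). Over all genes tested, 0.0111% passed the adjusted threshold, 27.4% had genotypes that did not overlap (13.4% with mutant higher and 14% with mutant lower), and 4.27% had an unadjusted p under 0.05, beside 0 of 6, 1 of 6 (Mbp, higher) and 0 of 6 here, which is near the share among all genes.

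**Figure D1:**
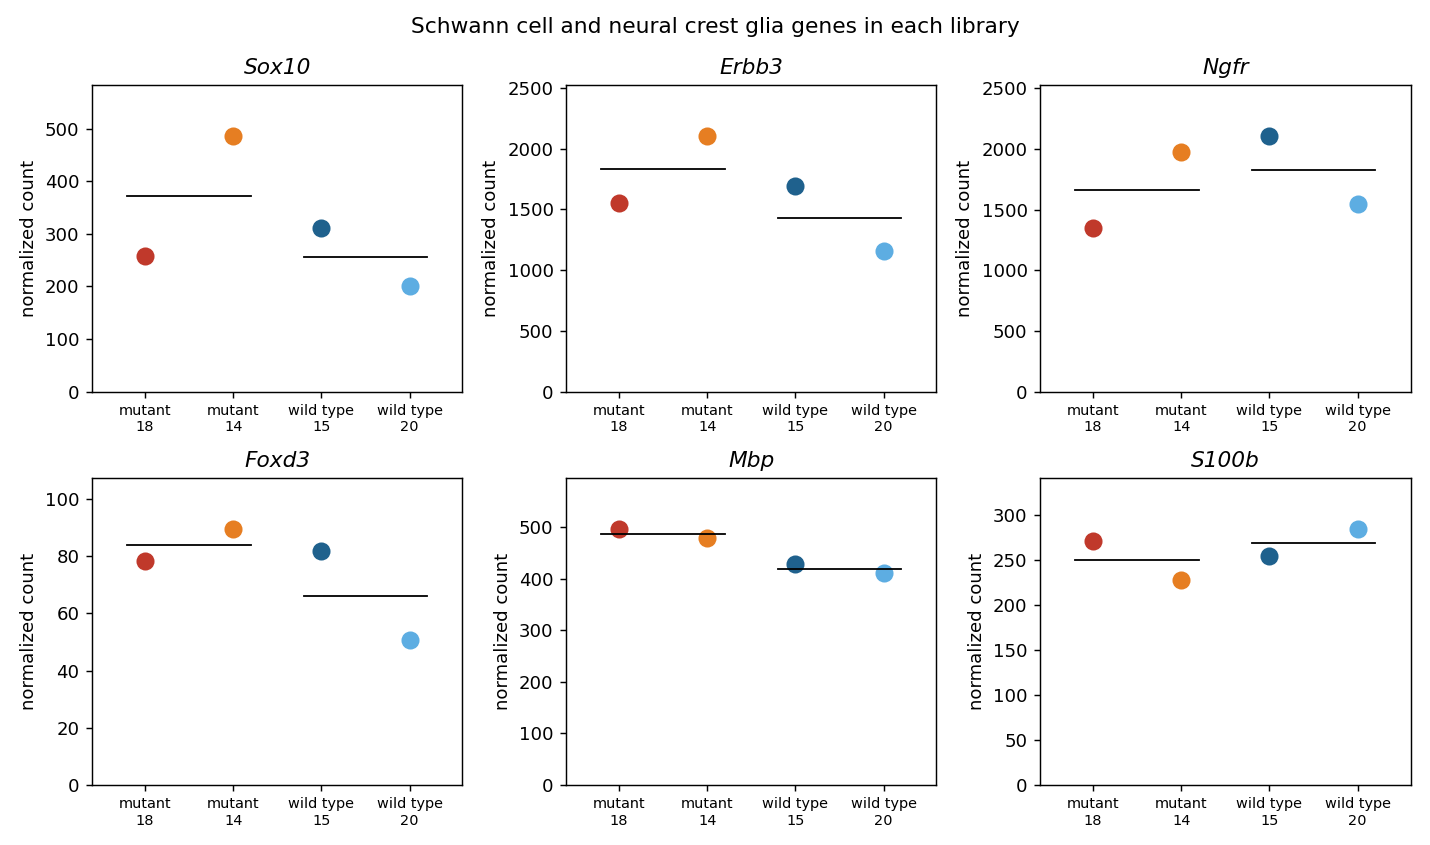
Normalized count (vertical axis, starting at 0) of each gene in mutant libraries 18 and 14 (reds) and wild-type libraries 15 and 20 (blues). Points are single libraries and horizontal lines are the mean of the 2 libraries of a genotype. Mbp is the gene whose mutant points both lie above its wild-type points.

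ASCL5 belongs to the Achaete-scute family, whose members bind E-boxes (CANNTG, and among them CAGCTG), so promoters of the 6 genes were searched for these letters and for the SOX motif ACAAAG on both strands. RefSeq promoter windows (GRCm38.p6, 250 bases before to 50 after the start) were matched for 3 of the 6, Ngfr, Foxd3 and S100b; Sox10, Erbb3 and Mbp had no entry. These 3 windows are shown so that the letters counted can be read in place, with every CANNTG in capitals.
Ngfr, chr11:95587649-95587948, minus strand: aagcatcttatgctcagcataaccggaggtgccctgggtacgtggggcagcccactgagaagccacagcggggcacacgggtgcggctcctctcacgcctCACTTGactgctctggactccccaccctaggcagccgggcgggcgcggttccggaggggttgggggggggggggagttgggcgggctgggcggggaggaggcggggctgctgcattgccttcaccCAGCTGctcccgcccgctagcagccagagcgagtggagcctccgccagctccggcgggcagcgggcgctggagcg
Foxd3, chr4:99656049-99656348, plus strand: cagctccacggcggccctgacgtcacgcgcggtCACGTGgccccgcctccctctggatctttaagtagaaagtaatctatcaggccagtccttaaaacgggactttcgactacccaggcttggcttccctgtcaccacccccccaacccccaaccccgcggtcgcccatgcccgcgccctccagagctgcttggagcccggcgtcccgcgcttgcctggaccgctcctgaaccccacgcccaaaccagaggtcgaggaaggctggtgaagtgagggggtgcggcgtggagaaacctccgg
S100b, chr10:76253586-76253885, plus strand: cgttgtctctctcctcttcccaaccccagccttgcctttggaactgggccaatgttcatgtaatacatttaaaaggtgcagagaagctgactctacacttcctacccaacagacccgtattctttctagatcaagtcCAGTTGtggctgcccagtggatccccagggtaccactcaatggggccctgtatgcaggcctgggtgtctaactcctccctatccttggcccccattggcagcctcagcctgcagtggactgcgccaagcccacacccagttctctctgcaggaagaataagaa

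The Ngfr window held 2 E-boxes, 1 of them CAGCTG, which begins 25 bases before the start, and the windows of Foxd3 and S100b held 1 each, CACGTG and CAGTTG. Of all 32851 promoter windows, 72.3% held a CANNTG and 16.3% a CAGCTG, so all 3 resemble most promoters in having an E-box. None of the 3 held ACAAAG on either strand, which 18.7% of all windows did. The GC content was 71.7% for Ngfr, 65.7% for Foxd3 and 53.7% for S100b, with a median of 52.7% over all windows. A match of letters is a description and not a binding site, and the 3 genes had no genotype difference past the test.

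Sox10 (chromosome 15, 79154908 to 79165240, minus strand, mm10) encodes the transcription factor on which glial specification of the crest depends. It was at 259 and 486 normalized counts in mutant 18 and 14 and at 311 and 201 in wild type 15 and 20. Mutant 14 was the highest library and wild type 20 the lowest, and the genotypes overlapped because wild type 15 exceeded mutant 18. The means were 372 ± 161 in mutant and 256 ± 77.8 in wild type (SD, n = 2 each), and the log2 fold change was 0.50 (SE 0.33, limma, adjusted p = 0.9999), with a 95% interval from a 0.83-fold to a 2.42-fold level in mutant. The 2 mutant libraries differed from each other by 1.88-fold, more than the genotypes did (1.42-fold). Without mutant 14 the log2 fold change was 0.046.

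Erbb3 (chromosome 10, 128567523 to 128589652, minus strand) encodes the neuregulin receptor of the lineage. It was at 1554 and 2103 in mutant 18 and 14 and at 1695 and 1161 in wild type 15 and 20. Its order of libraries was that of Sox10, and the genotypes again overlapped. The log2 fold change was 0.37 (SE 0.22, limma, adjusted p = 0.9999; interval 0.907-fold to 1.83-fold). The 2 wild-type libraries differed by 1.46-fold and the 2 mutant libraries by 1.35-fold, against 1.29-fold between genotypes. Leaving out wild type 20 brought the log2 fold change to 0.093, and leaving out mutant 14 to 0.15.

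Foxd3 (chromosome 4, 99656299 to 99658622, plus strand), a forkhead repressor of the early crest that holds cells away from the melanocyte fate, was at 78.2 and 89.5 in mutant 18 and 14 and at 81.7 and 50.6 in wild type 15 and 20. Wild type 20 lay below the other libraries, which were close together. The log2 fold change was 0.38 (SE 0.33, limma, adjusted p = 0.9999; interval 0.765-fold to 2.20-fold), and without wild type 20 it was 0.033. Its single exon overlaps an annotated microRNA gene on the same strand.

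Ngfr (chromosome 11, 95568818 to 95587735, minus strand) encodes the p75 receptor, which binds all neurotrophins and is used to sort crest cells and Schwann cell precursors. It was at 1346 and 1978 in mutant 18 and 14 and at 2107 and 1544 in wild type 15 and 20. Wild type 15 was the highest library and mutant 18 the lowest. The means were 1662 ± 447 in mutant and 1825 ± 398 in wild type (SD, n = 2 each), and the log2 fold change was -0.14 (SE 0.22, limma, adjusted p = 0.9999; interval 0.634-fold to 1.29-fold). Its sign depended on the libraries used: it was 0.13 without mutant 18 and 0.080 without wild type 15, but -0.42 without mutant 14 and -0.37 without wild type 20.

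Mbp (chromosome 18, 82475146 to 82585637, plus strand), the gene for myelin basic protein, was at 496 and 480 in mutant 18 and 14 and at 429 and 410 in wild type 15 and 20. Both mutant libraries lay above both wild-type libraries, and the 2 libraries of a genotype were within 1.05-fold of each other. The means were 488 ± 11.6 in mutant and 420 ± 13.3 in wild type (SD, n = 2 each), a 1.16-fold level (log2 fold change 0.22, SE 0.16, interval 0.904-fold to 1.49-fold). This difference exceeded the gap within either genotype, as it did for 17.2% of all genes tested, and did not pass (limma, adjusted p = 0.9999). Its SE draws on variance shared across genes, and the SD within genotype of Mbp itself was 0.040 on the log2 scale. With any 1 library left out the log2 fold change stayed between 0.18 and 0.25. The genotype difference of Mbp was therefore the least dependent on a single library among the 6, and also a small one.

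S100b (chromosome 10, 76253853 to 76261159, plus strand), a calcium-binding protein gene of Schwann cells and of cartilage, was at 271 and 228 in mutant 18 and 14 and at 254 and 284 in wild type 15 and 20. Wild type 20, the lowest library for Sox10, Erbb3, Foxd3 and Mbp, was the highest for S100b, and mutant 14, the highest for Sox10, Erbb3 and Foxd3, was the lowest. The log2 fold change was -0.11 (SE 0.20, limma, adjusted p = 0.9999; interval 0.675-fold to 1.27-fold) and was 0.013 without mutant 14. The gene body overlaps that of Dip2a on the opposite strand without shared exon bases, and the strand setting of the counting is not given in the sources used here. An exact permutation test within 1 gene cannot reach a p of 0.05 with 2 libraries a genotype, and the limma tests rest on variance shared across genes.

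**Figure D2:**
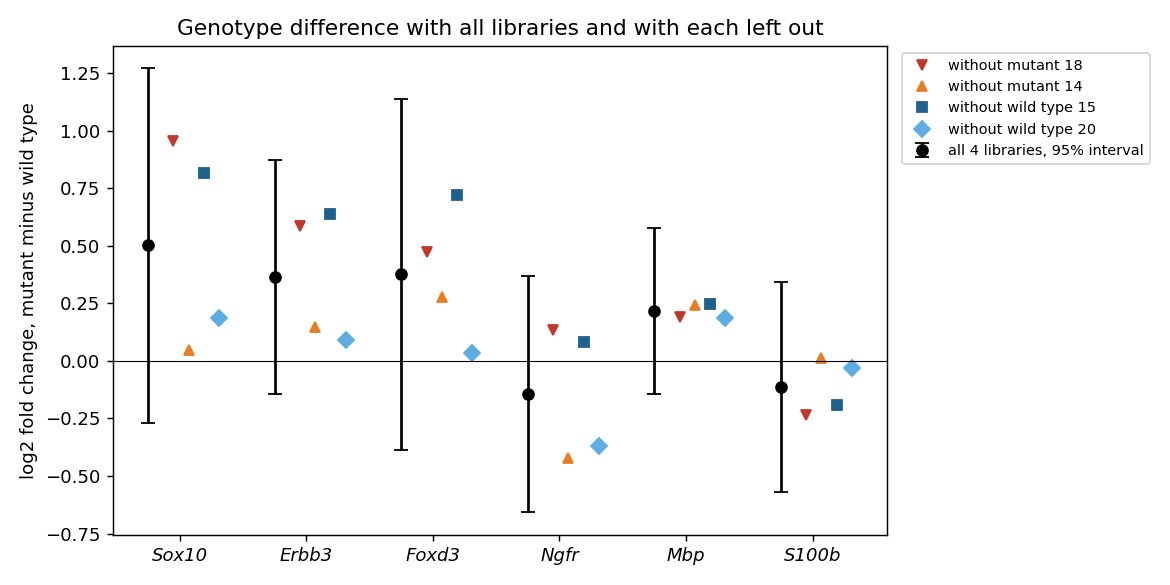
Log2 fold change, mutant minus wild type (vertical axis), of each gene. Black points with bars are the fit of all 4 libraries with its 95% interval, and coloured symbols are fits with 1 library left out. Every interval includes 0, the Sox10 value drops to 0.046 without mutant 14, and the Mbp values stay between 0.18 and 0.25.

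Counts of different genes can be compared only per length, so counts were divided by the merged exon length of each gene. On that scale Ngfr had the highest level, at 482 ± 130 normalized counts per kb in mutant and 530 ± 116 in wild type (SD, n = 2 each). Erbb3 followed at 304 ± 64.6 in mutant and 237 ± 62.8 in wild type, then S100b at 168 ± 20.5 in mutant and 181 ± 14.2 in wild type. Sox10 was at 122 ± 52.8 per kb in mutant and 84.0 ± 25.5 in wild type, Mbp at 57.6 ± 1.37 in mutant and 49.6 ± 1.57 in wild type, and Foxd3 at 36.1 ± 3.43 in mutant and 28.5 ± 9.48 in wild type. Neighbours in this order did not overlap across the 4 libraries except S100b and Sox10, whose ranges crossed in mutant 14. The receptors therefore stood above the nuclear factors: Ngfr exceeded 88.3% and Erbb3 76.4% of the 17722 tested genes with a length, against 51.9% for Sox10 and 31.9% for Foxd3. The exon length of Mbp, 8469 bases, merges many transcripts of a complex locus, so its level per kb depends on that merged length.

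The spread between libraries of 1 genotype was unusual for some of the genes. On the log2 scale the SD within genotype was 0.55 for Sox10, larger than in 97.2% of 2097 genes of similar level, and it was 0.35 for Erbb3 and 0.36 for Ngfr, larger than in 96.7% and 97.4% of genes of their levels. Foxd3 (0.36, larger than in 65.4%) and S100b (0.15, larger than in 36.4%) were unremarkable for their levels. Mbp was among the steadiest genes of its level, with an SD of 0.040 that was larger than in only 5.11% of 2601 genes.

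The genes also differed in which others they followed. Likeness was measured as the root mean square difference between 2 genes in log2 deviation from their own means over the 4 libraries. Erbb3 and Foxd3 were the most alike pair (0.0996), followed by Sox10 and Erbb3 (0.18), and the least alike were Sox10 and S100b (0.58). Of all genes with a mean of at least 20, 0.573% were closer to Erbb3 than Foxd3 was, 1.32% were closer to Sox10 than Erbb3 was, and 83.5% were closer to Sox10 than S100b was. The order of libraries that Sox10, Erbb3 and Foxd3 have in common was found in 5.37% of all genes tested. These are descriptions over 4 libraries, in which many unrelated genes follow any given order.

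**Figure D3:**
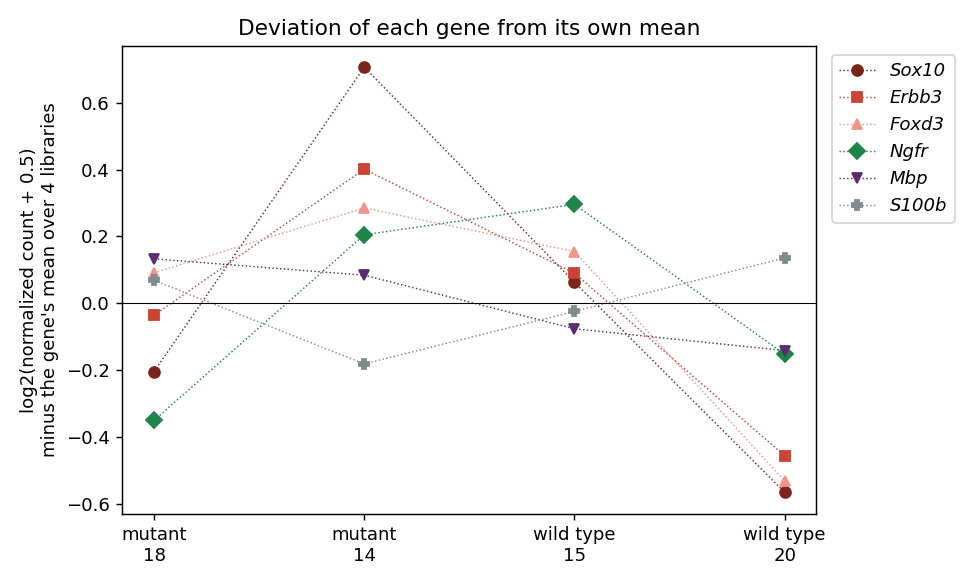
Deviation of each gene from its own mean over the 4 libraries on the log2(normalized count + 0.5) scale (vertical axis), by library. Dotted lines join the values of 1 gene and do not mark a sequence. Sox10, Erbb3 and Foxd3 peak in mutant 14 and are lowest in wild type 20, Mbp stays within 0.15 of its mean, and S100b is lowest in mutant 14.

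Ratios within a library show the same split, and a scaling factor common to all genes of a library cancels in them. Erbb3 had 19.9 and 23.5 counts for each Foxd3 count in mutant 18 and 14, and 20.7 and 22.9 in wild type 15 and 20, a range of 1.18-fold. The ratio of Sox10 to S100b was 0.95 and 2.13 in mutant 18 and 14 and 1.22 and 0.71 in wild type 15 and 20, a range of 3.01-fold. The ratio of Erbb3 to Ngfr was 1.15 and 1.06 in mutant 18 and 14 against 0.80 and 0.75 in wild type 15 and 20, higher in both mutant libraries. It was 1 of 4 among the 15 ratios of the 6 genes whose genotypes did not overlap. The others were Sox10 to Ngfr and Mbp to S100b, both higher in mutant, and Ngfr to Foxd3, lower in mutant. Among all single genes tested, 27.4% had genotypes that did not overlap. The 15 ratios reuse the same 6 genes and are not separate results. In bulk tissue a change in the number of cells of a type cannot be told apart from a change in RNA per cell.

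By the same measure the closest genes outside the group were Rnf208 and Ceacam1 for Sox10, Rgs7bp and Drc3 for Erbb3, Trim65 and Piwil2 for Foxd3, Tagap and Prdm9 for Ngfr, Evi5 and Alox12e for Mbp, and Cdk5 and Lifr for S100b, among 14073 genes compared over 4 libraries. Their root mean square differences lay between 0.00697 (Trim65) and 0.0369 (Drc3). Rnf208, for example, was at 138 and 264 in mutant 18 and 14 and at 165 and 108 in wild type 15 and 20, the order of Sox10.

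Other genes of the lineage were taken from a list of Schwann cell precursor and neural crest genes. Of 16, 0 passed the test, 14 lay higher and 2 lower in mutant, 5 were higher with no overlap (13.4% of all genes tested were), and the median log2 fold change was 0.20, beside 0.0025 over all genes tested, of which 9093 of 17979 lay higher. Without mutant 14 the median was 0.033. The members with the smallest p were Ednrb, the endothelin receptor of migrating crest (log2 fold change 0.27), Gfra3, a co-receptor for artemin (0.58), and Tfap2a, a crest transcription factor that is also strong in epithelium (0.44). Ednrb was at 1390 and 1206 in mutant 18 and 14 against 1062 and 1084 in wild type 15 and 20. Cdh19, a cadherin of Schwann cell precursors named here for its role after its values were seen, was at 117 and 124 in mutant 18 and 14 and at 120 and 117 in wild type 15 and 20, the flattest profile among the lineage genes named here.

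The myelin programme, the enzymes, membrane proteins and regulators of the sheath that Mbp helps to build, also had 0 of 20 genes past the test. In mutant 15 lay higher and 5 lower, with 7 higher and 4 lower without overlap (13.4% and 14% of all genes tested), and the median log2 fold change was 0.20. It was 0.053 without wild type 20 and 0.12 without mutant 14. Pou3f1, the factor that takes Schwann cells to the promyelinating stage, had the smallest p and was at 168 and 229 in mutant 18 and 14 against 134 and 72.5 in wild type 15 and 20 (log2 fold change 0.99, SE 0.34, limma, adjusted p = 0.924). Mal, a myelin proteolipid that epithelia also make, was at 1106 and 3082 in mutant 18 and 14 against 1373 and 660 in wild type 15 and 20, with the order of Sox10. Cldn19, a claudin of the sheath, was at 7.0 and 7.47 in mutant 18 and 14 against 18.8 and 12.7 in wild type 15 and 20.

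Of 19 genes of ErbB and neuregulin signalling, the pathway that Erbb3 serves, 0 passed the test. In mutant 17 lay higher and 2 lower, with 7 higher and 1 lower without overlap, where 13.4% and 14% of all genes tested were. The median log2 fold change was 0.30, with 0.12 when wild type 20 was left out and 0.19 when mutant 14 was. The 3 genes with the smallest p were ligands of the epidermal growth factor receptor and not of ERBB3 itself. Betacellulin (Btc) was at 367 and 305 in mutant 18 and 14 against 147 and 168 in wild type 15 and 20 (log2 fold change 1.09, SE 0.21, limma, adjusted p = 0.325), epiregulin (Ereg) at 198 and 414 against 106 and 74.2 (1.69), and amphiregulin (Areg) at 10.5 and 27.2 against 2.10 and 1.98 (2.78). Epithelial markers lay higher in mutant as well, 9 of 9 genes with a median of 0.48 that was 0.10 without mutant 14, 0.32 without wild type 15 and 0.76 without mutant 18, and their part in these values was not tested. Nrg1, the axonal ligand of ERBB3 named for its role, was at 98.1 and 149 in mutant 18 and 14 (log2 fold change 0.64). In wild type 15 and 20 it was at 84.7 and 71.4. Nrg2, another neuregulin named after its values were seen, was at 25.1 and 32.2 in mutant 18 and 14. In wild type 15 and 20 Nrg2 was at 16.3 and 3.03 (1.91, SE 0.75). The genotypes of Nrg3 and Nrg4 overlapped. The partner receptor Erbb2 was at 1820 and 2450 in mutant 18 and 14 against 2208 and 1693 in wild type 15 and 20 (0.13).

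The neurotrophin genes, ligands and partners of Ngfr, were split, with 7 of 16 higher and 9 lower in mutant, 0 past the test and a median log2 fold change of -0.018. The median turned to 0.13 without wild type 15 and 0.10 without mutant 18. Bex3, an NGFR-associated protein gene, was at 1557 and 1692 in mutant 18 and 14 against 1721 and 2005 in wild type 15 and 20, and Traf6, a signalling adaptor, had a log2 fold change of 0.12.

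Markers of other cells that make some of these genes also differed between libraries. The 16 neuronal genes summed to 2228 and 5741 normalized counts in mutant 18 and 14 and to 2249 and 2448 in wild type 15 and 20, and 15 of the 16 were highest in mutant 14. Nefh, a neurofilament, was at 13.4 and 55.5 in mutant 18 and 14 against 5.19 and 1.99 in wild type 15 and 20, Elavl4 at 70.7 and 139 against 50.1 and 36.5, and the sensory neuron factor Pou4f1 at 13.3 and 31.3 against 6.28 and 8.92. These 3 are among the 5 of 16 neuronal genes that were higher in mutant without overlap, where 13.4% of all genes tested were. The genotypes of the other 11 overlapped. The median log2 fold change of the neuronal list was 0.90, with -0.15 without mutant 14 and 1.84 without mutant 18.

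The 12 salivary gland genes summed to 146 and 6687 in mutant 18 and 14 and to 155 and 183 in wild type 15 and 20, and all 11 that were tested were highest in mutant 14. Dcpp3 was at 19.1 and 408 in mutant 18 and 14 against 1.05 and 0.98 in wild type 15 and 20, and Dcpp1 at 16.2 and 249 against 3.16 and 0. Dcpp2 was at 1.91 and 22.2 in mutant 18 and 14 and was listed at 0 in wild type 15 and 20. Of the 11 genes tested, 4 were higher in mutant without overlap, these 3 among them, where 13.4% of all genes tested were. The genotypes of the other 7 overlapped. Bpifa2, named after its values were seen, was at 1009 in mutant 14 and was listed at 0 in mutant 18 and in wild type 15 and 20. Sox10, a gene of salivary gland epithelium as of glia, was also highest in mutant 14. So were Erbb3, Foxd3 and 25.9% of all genes tested. With mutant 14 left out, the log2 fold changes of Sox10, Erbb3 and Foxd3 were 0.046, 0.15 and 0.28. With wild type 20 left out they were 0.19, 0.093 and 0.033. The part of gland tissue in these values was not tested.

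The 10 melanocyte genes, of a crest lineage that also carries Sox10, summed to 539 and 581 in mutant 18 and 14 against 369 and 418 in wild type 15 and 20. In mutant 9 of the 10 lay higher and 1 lower, with a median log2 fold change of 1.2, and 0 passed the test. Several were at low counts. Gpr143 was at 4.77 and 4.05 in mutant 18 and 14 against 2.10 and 0.99 in wild type 15 and 20. Mitf was at 303 and 269 against 250 and 259, with a log2 fold change of 0.17 (SE 0.18). Both are named after their values were seen. Of the 10, 8 were higher without overlap, against 13.4% of all genes tested, among them Pmel at 82.0 and 98.6 in mutant 18 and 14 against 46.1 and 45.3 in wild type 15 and 20, Tyr at 22.2 and 27.1 against 9.51 and 7.87, and Dct at 81.9 and 113 against 34.7 and 59.1. The 15 chondrocyte genes, of cells that make S100b, summed to 67583 and 56646 in mutant 18 and 14 against 92428 and 74680 in wild type 15 and 20, with 14 of 15 lower in mutant and a median of -0.41, or -0.24 without wild type 15. Comp was at 542 and 502 in mutant 18 and 14 against 800 and 834 in wild type 15 and 20, Acan at 4394 and 3402 against 6448 and 5017, and Col10a1 at 6991 and 6418 against 8451 and 9771. The chondrocyte sum and S100b were both lowest in mutant 14, while the sum was highest in wild type 15 and S100b in wild type 20. Of the 15 genes, 10 were highest in wild type 15 (Acan among them), 3 in wild type 20 (Comp and Col10a1 among them) and 2 in mutant 18. Over all genes tested, 26.6% were highest in wild type 15, 24.3% in wild type 20 and 23.2% in mutant 18. The part of these cells in the values of the 6 genes was not tested.

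Defining markers of oligodendrocytes, the glia that make Mbp in the brain, were at or near 0. Opalin, a marker of oligodendrocytes, was listed at 0 in all 4 libraries, Mog, another, was at 0.95 in mutant 18 and listed at 0 elsewhere, and Olig1 was at 4.80 and 3.03 in mutant 18 and 14 against 8.15 and 6.08 in wild type 15 and 20. Mobp, a myelin gene of oligodendrocytes, was at 3.82 and 9.08 in mutant 18 and 14 against 3.17 and 1.96 in wild type 15 and 20. Aqp4, listed with them as a gene of central glia, was not near 0. It was at 55.9 and 22.3 in mutant 18 and 14 against 20.5 and 25.6 in wild type 15 and 20.

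**Figure D4:**
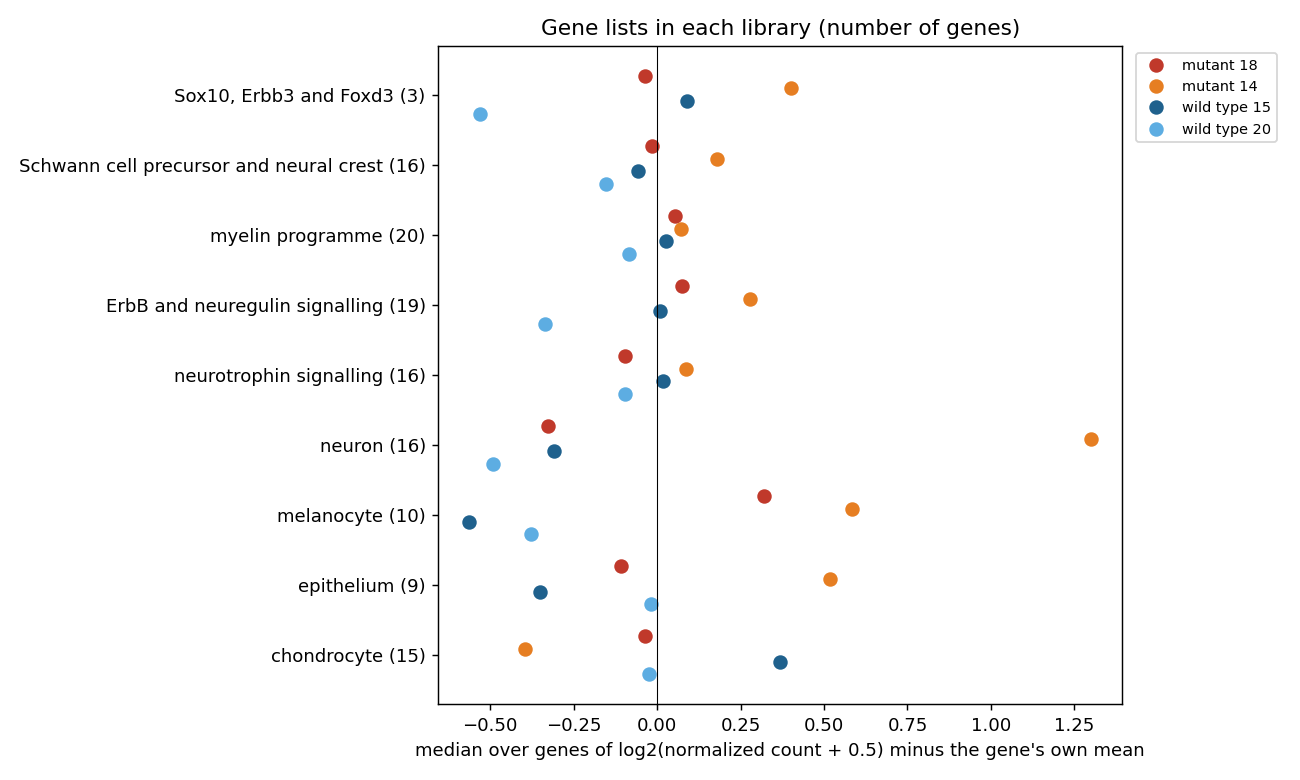
Median over the genes of each list of the log2 deviation from the gene's own mean (horizontal axis) in each library, with the number of genes in parentheses. Mutant 14 lies to the right for neuronal and epithelial genes and for Sox10, Erbb3 and Foxd3, and to the left for chondrocyte genes; the salivary gland list, summing to 6687 in mutant 14 and at most 183 elsewhere, is beyond this scale and is not drawn.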

How the data were processed

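RNA from mouse mandibular dental arches was made into stranded mRNA libraries, per the labels' protocols. The authors deposited 1 signal value per gene and library, a normalized read count that is not a whole number. The authors used DESeq2 and build mm10, per the submitters' processing notes, which give no versions. For the aligner, counter, strand setting and annotation, what was used is not given in the sources used here. Totals were between 22134483 and 22578580, and 32.0% to 34.6% of values above 0 were whole multiples, within 0.1, of the commonest low value, so reads were not recovered and no counting interval is given.

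A pseudocount of 0.5 was added before taking log2, genes averaging under 1 were dropped, and genotype was fitted across all remaining genes with limma 3.58.1 in R 4.3.3 (variance trend, moderated variances) and Benjamini-Hochberg adjustment at 0.05. Fold changes are mutant over wild type on that scale, which understates changes of low genes. Lengths and coordinates came from GENCODE M21 (mm10). The 2 libraries of a genotype differed by a median of 0.229 (mutant) and 0.23 (wild type) on the log2 scale, so none was a repeat deposit. Genes named from the 11 lists were the 3 with the smallest p in each. Others are said to be named for their roles or after their values were seen. Some genes of these lists are not reported here. The members, lists and settings were chosen with earlier results of these data known.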

Additional observations from a re-analysis of the deposited data

How the results depend on the processing

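None of the 6 genes passed at an adjusted p of 0.05 in limma under any of 14 alternatives, where their smallest adjusted p was 0.717 (Sox10 without mutant 18). Sox10, Erbb3, Foxd3 and Mbp stayed positive in all 14. Changes of pseudocount, filter, scaling or variance model hardly moved these fold changes, so the 14 are not separate checks of the sign. With 1 library left out, the lowest values of Sox10, Erbb3, Foxd3 and Mbp were 0.046, 0.093, 0.033 and 0.18. With sex as a covariate Ngfr turned to 0.080, and Sox10, Erbb3 and Foxd3 were at 0.82, 0.64 and 0.72, the fold changes also found without wild type 15. Ngfr ranged from -0.42 to 0.13 with 1 library left out. S100b ranged from -0.24 to 0.013 with 1 library left out. The count of genes past the threshold, 2, was 4 with pseudocount 1, robust moderation or a threshold of 0.1, 1 with no filter or no variance trend, 0 with vooma weights or the sex covariate, and 0 to 5 with 1 library left out; at an unadjusted p under 0.05, vooma gave 724 genes, the sex covariate 524 and the fits with 1 library left out 446 to 1209. No paired analysis was possible because the labels give no litter or other pairing of the samples. The median of the neurotrophin list ranged from -0.080 to 0.13 and that of the neuronal list from -0.15 (without mutant 14) to 1.84 with 1 library left out. The cause was not tested. No median is given for the salivary gland list, some of whose genes were at 0 in wild type. Fits with a library left out have 1 residual degree of freedom and assume that a lone library varies like the others. With 2 libraries a genotype, only the 95% intervals say how large a difference could have been missed, and sex and genotype are partly confounded.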
